A study of Mus musculus with 24 samples.

Results

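Zic1, Zic2, Zic4, Zic5, En1, Pax1, Pax3 and Pax9 are transcription factor genes of embryonic patterning, and these 8 genes were followed here among the 18368 genes measured in mouse skin. All 8 were found in the table by their symbols. Zic1 and En1 had been selected on their differences between skin sites in these same libraries, so their levels by site are given as a description and with no test. The other 6 members completed the gene families, and the change on wounding chose none of the 8. RNA was measured in 24 libraries from 12 CD1 mice, an outbred stock. The mice were 7 weeks old and described as in telogen, the resting phase of the hair cycle. Each mouse was wounded at a single site, which was abdomen, back or cheek, with full-thickness punch wounds 2 mm in diameter (1 wound in the cheek, 2 in the abdomen or back). The wound and adjacent unwounded skin of the same mouse were taken at day 3 by a 2 mm punch, which gave 4 unwounded and 4 wound libraries per site. All mice were anaesthetised, given an analgesic and shaved before wounding, and whole tissue was sequenced, so every value is a sum over all cells of the punch.

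Zic proteins are zinc finger factors that act in the dorsal neural tube and in the somites, the blocks of paraxial mesoderm that give rise to vertebrae, trunk muscle and the dermis of the back. En1 is a homeobox factor known for its place at the boundary of midbrain and hindbrain, in the ventral ectoderm of the limb bud and in fibroblasts of the dorsal dermis that lay down scar tissue. Pax proteins carry a paired DNA-binding domain. Pax3 acts in the dorsal somite, in neural crest cells and in the melanocytes that derive from them, whereas Pax1 and Pax9 act in the ventral somite, where the vertebrae form, and in the pouches of the pharynx.

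Levels are given as FPKM, which scales the fragments of a gene by its transcript length and by the total of the library, so that levels of different genes can be set side by side. The members were scarce transcripts. En1 was the most abundant, with a mean of 3.5 FPKM over the 24 libraries, and 42.0% of all genes had a lower mean. Zic1 followed with a mean of 1.61 FPKM and 32.4% of genes below it, Pax3 with 0.32 FPKM and Zic4 with 0.129 FPKM. Pax1 and Pax9 had means of 0.123 and 0.112 FPKM, Zic2 of 0.0383 FPKM and Zic5 of 0.00833 FPKM. En1 and Pax3 were above 0 in all 24 libraries. Zic5 was listed at 0 in 19 libraries, Zic4 in 9, Zic2 and Pax1 in 6 each, Pax9 in 5 and Zic1 in 1. The table holds no fragment counts, so the depth is unknown. All values of Zic2 were multiples of 0.02 FPKM, which shows how coarse the lowest values are.

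**Figure D1:**
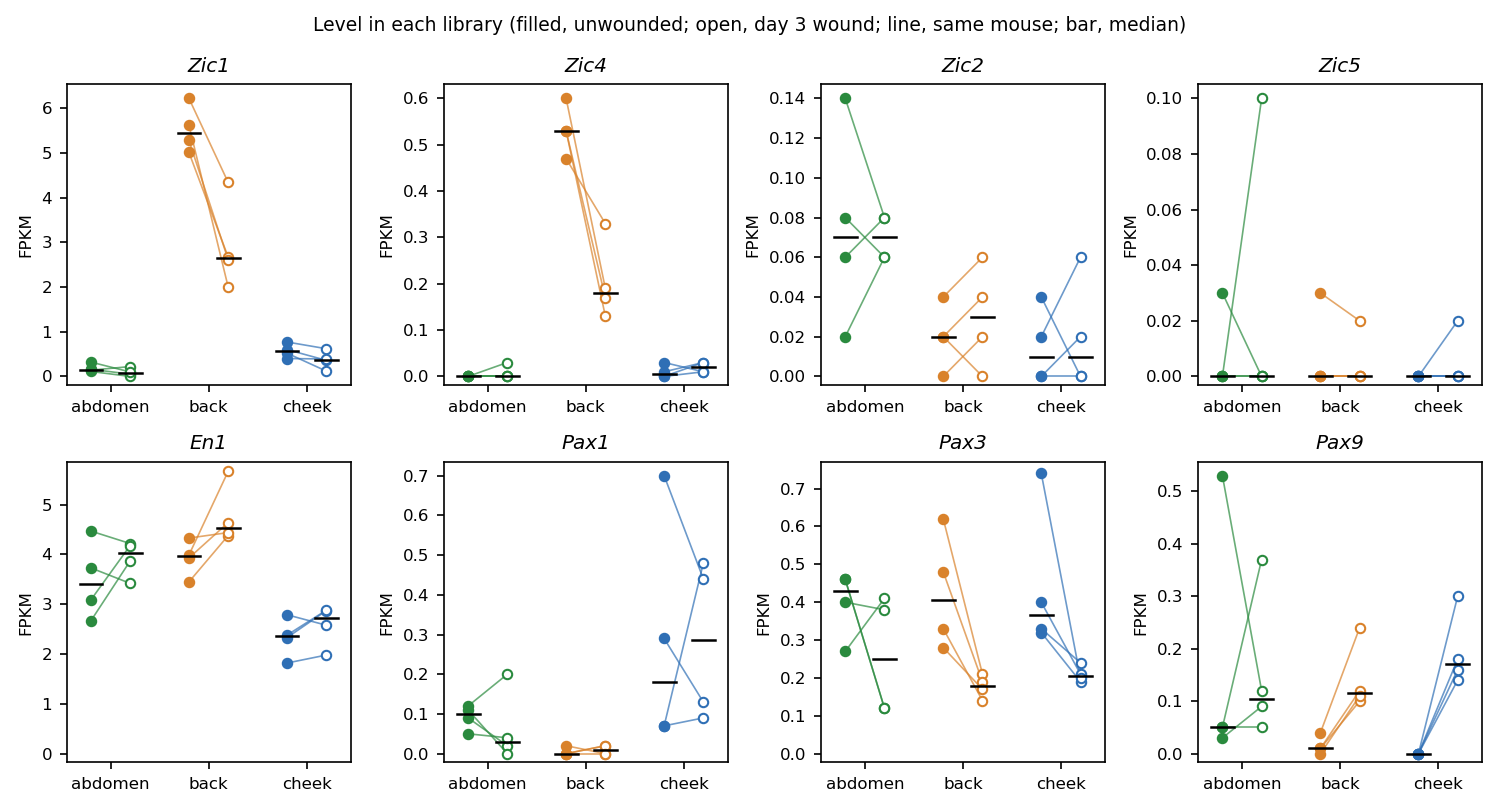
Level of each member in FPKM (vertical axis, from 0, with its own scale in each panel) by skin site, with filled points for unwounded skin, open points for day 3 wounds, lines that join both libraries of a mouse and black bars at the medians of 4 mice. Zic1 and Zic4 stood highest in back skin and fell in all 4 back wounds, En1 was above 1.8 FPKM in every library, and Pax9 was higher in the wound, from at most 0.04 FPKM before, in every back and cheek mouse.

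Zic1 and Zic4 are neighbours on chromosome 9. In the RefSeq annotation of GRCm38.p6 Zic1 (gene identifier 22771) lies at chr9:91358058-91365768 on the minus strand, and Zic4 (22774) at chr9:91365631-91389351 on the plus strand. They point away from each other, and their 5′ ends overlap by 138 bases. Whether fragments were counted by strand is not given in the sources used here, so fragments from these 138 bases cannot be told apart. En1 (13798) lies at chr1:120602487-120607991 on the plus strand. The stretches just upstream of Zic1 and En1 are shown because these are the most abundant members, and the Zic1 stretch also lies inside the overlapping Zic4 gene, outside the exons that GENCODE M21 annotates. They were taken from RefSeq promoter sequences (GRCm38.p6), which matched 6 of the 8 members, and are given 5′ to 3′ on the strand of each gene. Capitals mark matches to CCAAT on either strand, which read ATTGG where the match is on the other strand. They also mark CACGTG, a palindrome that reads alike on both strands. Matches to GGGCGG were searched on both strands as well, and no match overlapped another.

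Zic1, chr9:91365811-91366018, minus strand: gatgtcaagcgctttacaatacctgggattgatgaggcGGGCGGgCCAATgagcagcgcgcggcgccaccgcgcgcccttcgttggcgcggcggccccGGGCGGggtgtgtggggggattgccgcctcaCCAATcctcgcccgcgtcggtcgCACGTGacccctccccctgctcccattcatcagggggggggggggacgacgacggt

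En1, chr1:120602237-120602417, plus strand: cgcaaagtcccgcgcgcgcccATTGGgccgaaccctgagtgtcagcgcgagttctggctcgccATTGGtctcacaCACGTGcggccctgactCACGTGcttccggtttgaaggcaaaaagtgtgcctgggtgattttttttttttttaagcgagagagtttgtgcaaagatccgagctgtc

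The Zic1 stretch of 208 bases was 71.2% G or C and held 26 CG pairs. As many CG pairs were found in the first 208 bases of 4.82% of the 32851 promoter sequences of the table. It held CCAAT at 2 places, GGGCGG at 2 places and CACGTG at 1, letters found in 29.6%, 26.2% and 4.59% of all promoter sequences cut to the same length. The En1 stretch of 181 bases was 55.2% G or C, with 15 CG pairs, a number reached in 14.1% of promoter sequences. It held CCAAT at 2 places and CACGTG at 2, in a window where these letters occur in 25.2% and 3.72% of promoter sequences, and no GGGCGG. A match is a description of the letters and says nothing of binding.

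Zic1 was highest in back skin. Unwounded back skin held 5.01, 6.22, 5.62 and 5.28 FPKM in mice 1 to 4. Unwounded cheek skin of 4 other mice held 0.77, 0.60, 0.52 and 0.40 FPKM, and unwounded abdomen skin 0.16, 0.14, 0.11 and 0.32 FPKM. All back libraries lay above all others, and every cheek library lay above every abdomen library. The mean in back was 30.3 times that in abdomen, and the mean in cheek 0.103 times that in back. Because these values selected the gene, no test is given.

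Zic4 showed the same site at a lower level. It was at 0.53, 0.47, 0.53 and 0.60 FPKM in unwounded back skin of mice 1 to 4. It was listed at 0 in all 4 unwounded abdomen libraries and, in cheek, at 0.03, 0.01, 0 and 0 FPKM. Back lay above abdomen and above cheek with no overlap (exact permutation test of 4 libraries against 4, two-sided, p = 0.0286 for each, the smallest that this design allows). Zic4 was not in the model across all genes, since fewer than 4 unwounded libraries reached 0.5 FPKM. With no filter on low values the log2 difference was 1.04 (limma, adjusted p = 1.3e-06) against abdomen, where the spread is 0 because all values are 0, and cheek minus back was -1.02 (limma, adjusted p = 7.0e-07). That fit called 1.77% of genes between back and abdomen and 0.862% between cheek and back. It pools the spread of all sites, including the abdomen and cheek libraries at or near 0. Both adjusted p values therefore do not measure the spread among the back mice alone. Of the 6 members outside the selection, Zic4 alone had every unwounded back library above all 8 others. This pattern was held by 0.347% of the genes above 0 in at least 1 unwounded library. Zic1 had it too, but was selected for its site pattern, so the share does not bear on Zic1.

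Both genes kept their site in the wounds. Zic1 was at 2.67, 4.34, 2.00 and 2.61 FPKM in back wounds of mice 1 to 4, at 0.62, 0.36, 0.12 and 0.39 FPKM in cheek wounds, and at 0.05, 0.22, 0 and 0.10 FPKM in abdomen wounds. The lowest back wound therefore still lay above the highest cheek wound, whereas cheek and abdomen wounds overlapped. Zic4 was at 0.13, 0.33, 0.17 and 0.19 FPKM in back wounds, at 0.01, 0.03, 0.01 and 0.03 FPKM in cheek wounds, and above 0 in a single abdomen wound (mouse 3, 0.03 FPKM). Back wounds exceeded the wounds of either other site in Zic4 (exact permutation test, p = 0.0286 for each). In the fit with no filter, back minus abdomen was 0.47 (limma, adjusted p = 0.023) and cheek minus back -0.43 (limma, adjusted p = 0.020), where 0.75% and 1.38% of genes were called. Here too the spread is pooled over all sites, including wounds at or near 0. Of the 6 members outside the selection, Zic4 alone had every back wound above all 8 other wounds, as did 0.639% of genes. Zic1 and En1 had this pattern too, but were selected for their site patterns, so the share does not bear on them.

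Zic1 fell in back wounds. Its level in the wound was 53.3%, 69.8%, 35.6% and 49.4% of that in unwounded back skin of the same mouse, so all 4 mice were lower. Wound libraries of cheek held 80.5%, 60.0%, 23.1% and 97.5% of the unwounded level, again lower in all 4, and abdomen wounds were lower in 3 of 4 mice, with mouse 2 at 157%. In the model with a term for each mouse, the change on the log2(FPKM + 0.5) scale was -0.86 ± 0.16 (SE) in back (limma, adjusted p = 0.00082). It was -0.32 ± 0.16 in cheek (limma, adjusted p = 0.13) and -0.21 ± 0.16 in abdomen (limma, adjusted p = 0.33), where low levels shrink any change on this scale. The mean of the 3 sites was -0.46 ± 0.09 (limma, adjusted p = 0.00068). In bulk tissue, fewer cells of a type and less RNA per cell cannot be told apart.

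The wound moved a large share of all genes, so a call by itself says little of a member. The model called 45.9% of genes in back, 36.6% in cheek, 32.9% in abdomen and 62.7% for the mean of sites. Among the members, 3 of the 8 comparisons made for Zic1 and En1 (4 for each gene) were called, which are Zic1 in back and both genes for the mean of sites. A difference of the wound effect between sites was called for 0.0208% of genes. It was called for neither Zic1 (limma, adjusted p = 0.32) nor En1 (limma, adjusted p = 0.87), and before adjustment Zic1 alone was under 0.05. The fall of Zic1 was therefore past the threshold in back alone, but was not shown to differ from that of the other sites.

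**Figure D2:**
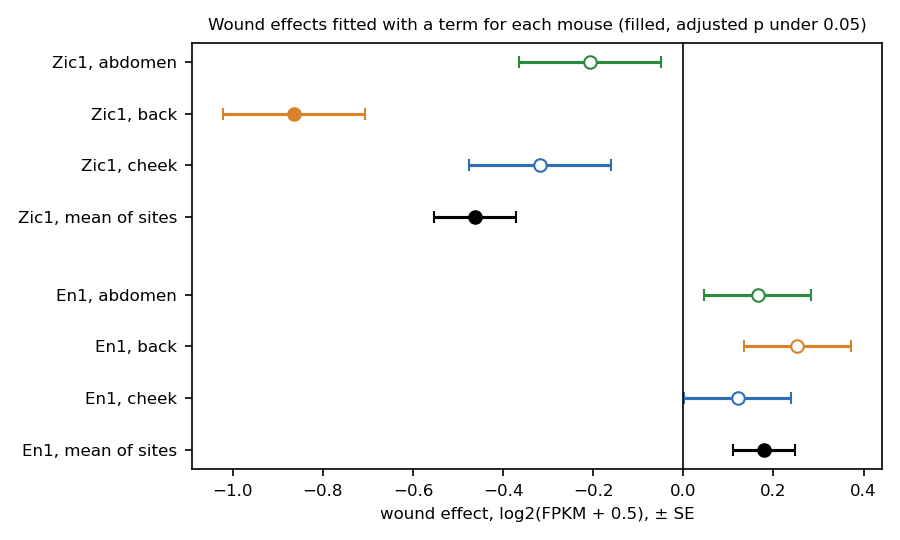
Wound effects of Zic1 and En1 on the log2(FPKM + 0.5) scale (horizontal axis) from the model with a term for each mouse, with bars of 1 SE and filled points where the adjusted p was under 0.05. Zic1 lay below 0 at every site, at -0.86 in back, and En1 above 0 at every site, with 0.18 for the mean of sites.

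Zic4 fell beside Zic1. In the 4 back mice the wound held 24.5%, 70.2%, 32.1% and 31.7% of the unwounded Zic4 level. Mouse 2 kept the most of both genes. In the fit with no filter the change in back was -0.56 ± 0.07 on the log2(FPKM + 0.5) scale (limma, adjusted p = 0.0001), where 36.5% of genes were called. The difference of its wound effect between sites did not pass (limma, adjusted p = 0.099, against 0.0109% of genes called). At abdomen and cheek Zic4 was at or near 0 before wounding, so no fall could be seen there. The fit pools the spread of all 12 mice, including these mice near 0. Its SE and adjusted p therefore do not measure the spread among the back mice alone. Over all 12 mice, 5 were lower and 4 higher (exact sign changes of the within-mouse difference, two-sided, p = 0.117).

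Within back skin Zic4 amounted to 7.56% to 11.4% of the Zic1 level in unwounded back skin and to 4.87% to 8.50% in back wounds, with overlapping ranges. Over the 24 libraries Zic1 was the tested gene with the pattern most like that of Zic4 (Pearson r = 0.938 of log2(FPKM + 0.5)), a description that rests on the 8 back libraries standing apart from 16 libraries near 0.

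**Figure D3:**
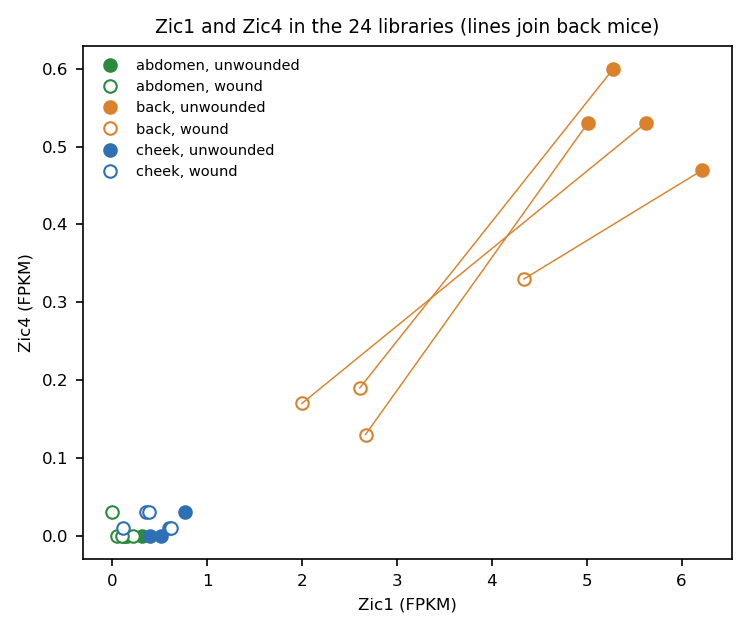
Zic4 against Zic1, both in FPKM, in the 24 libraries, with filled points for unwounded skin, open points for wounds and lines that join both libraries of each back mouse. The 8 back libraries stand apart from the 16 others, and each line runs down to the left, from 5.01 FPKM or more of Zic1 to 4.34 FPKM or less.

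Genes with profiles like Zic1 were Mup20 (r = 0.852), Slc38a5 (0.832), C6 (0.829) and Tnmd (0.755), each over 24 libraries that share mice and sites. Mup20, a major urinary protein, had a mean of 3.85 FPKM in unwounded back skin and of 0.29 FPKM in abdomen and 0.125 FPKM in cheek. In back wounds its mean was 0.778 FPKM. Tnmd, a membrane protein of tendon, had means of 72.4 FPKM in back, 20.6 in abdomen and 27.8 in cheek, and of 22.3 FPKM in back wounds. For Zic4 such genes were Zic1, Mup20 (0.914), Slc38a5 (0.888) and Chpf (0.856), so Mup20 and Slc38a5 stood near both genes.

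Skeletal muscle lies under mouse skin, and the sum of its markers fell in every back and cheek mouse but rose in abdomen mice 2 and 3. Between unwounded sites limma called none of the 8. The summed level of 8 mature muscle genes (Acta1, Ckm, Myh1 and others) was 13700 to 21600 FPKM in unwounded back, 11000 to 22200 in cheek and 486 to 15000 in abdomen, with abdomen mice 2 and 3 at 486 and 2640. In back wounds it was 3120 to 4510 FPKM and in cheek wounds 4680 to 6570, while abdomen mice 2 and 3 rose to 2460 and 4030 FPKM. In the mean of sites 7 of the 8 genes fell, where 62.7% of all tested genes were called. The median log2 change of the 8 was -1.33, against 0.02 over all tested genes. Unwounded back and cheek overlapped in the summed level. Fibroblast genes also moved, with 6 of 8 lower and 1 higher in wounds (median -0.56). The part of the muscle and fibroblast markers in the site pattern or the fall of Zic1 and Zic4 was not tested.

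Zic2 and Zic5, the pair on chromosome 14 (Zic5 at chr14:122459160-122465658 and Zic2 at chr14:122475384-122480328), were near the lower limit of the table. Zic2 reached 0.14 FPKM at most, in unwounded abdomen of mouse 1. It was at 0.14, 0.06, 0.02 and 0.08 FPKM in unwounded abdomen, at 0 to 0.04 FPKM in back and in cheek, and at 0.06 to 0.08 FPKM in abdomen wounds. No pair of sites passed the test for Zic2 (exact permutation test, lowest p = 0.0857). Zic5 was above 0 in 5 libraries, with 0.10 FPKM in 1 abdomen wound as its highest value. On wounding neither passed the test over the 12 mice (exact sign changes, p = 0.856 for Zic2 and 0.75 for Zic5), and at such levels a change in either direction was hardly detectable.

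En1 was present in skin of every site and lowest in cheek. Unwounded abdomen held 2.67, 3.73, 4.47 and 3.09 FPKM in mice 1 to 4. Unwounded back held 3.45, 3.93, 4.33 and 3.99 FPKM, within the range of abdomen. Unwounded cheek held 2.33, 1.82, 2.79 and 2.38 FPKM, below every back library and overlapping abdomen by 1 library. The mean in cheek was 0.594 times that in back and 0.668 times that in abdomen. These values selected the gene and carry no test.

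In wounds the 3 sites did not overlap. En1 was at 4.38, 4.64, 4.44 and 5.67 FPKM in back wounds of mice 1 to 4. Abdomen wounds held 3.87, 3.42, 4.22 and 4.18 FPKM and cheek wounds 2.87, 1.98, 2.58 and 2.88 FPKM. In the wounds En1 had every cheek library below all 8 others, a pattern held by 1.1% of genes. Because En1 was selected for its site pattern, that share does not bear on it. No other member had the pattern in wounds, and in unwounded skin none of the 8 did, against 0.649% of genes.

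En1 was higher in wounds in 9 of 12 mice, which were all 4 back mice, 3 of 4 cheek mice and 2 of 4 abdomen mice. The back wounds held 127%, 118%, 103% and 142% of the unwounded level. The change for the mean of sites was 0.18 ± 0.07 on the log2(FPKM + 0.5) scale (limma, adjusted p = 0.035), and for single sites 0.25 ± 0.12 in back, 0.17 ± 0.12 in abdomen and 0.12 ± 0.12 in cheek (limma, adjusted p = 0.098, 0.30 and 0.45). The call for the mean was lost without any 1 of 8 mice (abdomen 1 or 4, back 1, 2 or 4, cheek 1, 2 or 4), with limma adjusted p up to 0.0805. It was also lost with median-ratio scaling (limma, adjusted p = 0.0622), with quantile normalization (0.125) and without the mouse term (0.0584). In FPKM the mean rose from 3.25 in unwounded skin to 3.76 in wounds (exact sign changes over 12 mice, p = 0.0186, adjusted over all genes 0.039), and with quantile normalization this test did not pass (exact, p = 0.0698).

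The 5 genes most like En1 were Crtap (r = 0.871), Creb3l1 (0.832), Derl1 (0.831), Hoxb8 (0.823) and Dpysl2 (0.817). Crtap, which acts in collagen modification, and Creb3l1, a transcription factor of the secretory pathway, were abundant at all sites, with means of 48.3 to 73.9 and 50.4 to 85.1 FPKM over the 6 groups. Hoxb8, a homeobox gene of the trunk, was listed at 0 in cheek and had means of 4.71 FPKM in unwounded back and 1.41 FPKM in unwounded abdomen.

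Pax1 was lowest in back, the opposite of Zic1. Unwounded back libraries were listed at 0, 0, 0 and 0.02 FPKM. Unwounded cheek held 0.07, 0.07, 0.29 and 0.70 FPKM in mice 1 to 4, and unwounded abdomen 0.09, 0.11, 0.12 and 0.05 FPKM. Both lay above back with no overlap (exact permutation test, p = 0.0286 for each). In the wounds cheek again lay above back, at 0.48, 0.09, 0.13 and 0.44 FPKM against 0, 0.02, 0.02 and 0 FPKM (exact permutation test, p = 0.0286), while abdomen wounds ranged from 0 to 0.20 FPKM and overlapped both. Every cheek library lay above every back library for Pax1 alone among the 8 members, in a pattern that 10.3% of genes held in unwounded skin and 14.1% in wounds. With no filter, limma called none of these differences (adjusted p = 0.16 for cheek minus back in unwounded skin and 0.079 in wounds), and the levels are those of a very rare transcript.

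The cheek libraries were also uneven in other ways. Cheek mouse 4, with the highest Pax1, had 34.25 FPKM of Msx2 and 18.11 FPKM of Foxn1 in unwounded skin, both of which act in the hair follicle, against at most 5.11 and 3.68 FPKM in the other unwounded libraries. Whether the skin of this mouse was in telogen was not tested. Of 6 genes of thymus and parathyroid, where Pax1 and Pax9 act in the embryo, 4 were near 0, with Psmb11 at most 0.16, Aire 0.14, Gcm2 0.10 and Pth 0.09 FPKM in any library. Ccl25 was at 0.46 to 1.57 FPKM in every library and Foxn1 at 1.73 FPKM or more, and the list summed to 2.61 to 19.2 FPKM. The part of these genes in the Pax1 values was not tested.

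Pax3 overlapped between all sites. Unwounded abdomen held 0.46, 0.27, 0.46 and 0.40 FPKM in mice 1 to 4, back 0.62, 0.48, 0.28 and 0.33 FPKM, and cheek 0.40, 0.32, 0.74 and 0.33 FPKM. The tests gave no call (exact permutation test, p from 0.714 to 0.886), and none in the wounds (p from 0.2 to 0.543).

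Pax3 fell on wounding in 11 of 12 mice, with abdomen mouse 2 as the exception. Back wounds were at 0.21, 0.19, 0.17 and 0.14 FPKM, cheek wounds at 0.21, 0.19, 0.20 and 0.24 FPKM and abdomen wounds at 0.12, 0.41, 0.12 and 0.38 FPKM. In back and in cheek every wound lay below every unwounded library. The mean fell from 0.424 to 0.215 FPKM (exact sign changes over 12 mice, two-sided, p = 0.00391, adjusted over all genes 0.0108). With no filter the mean of sites was -0.37 ± 0.09 on the log2(FPKM + 0.5) scale (limma, adjusted p = 0.0035), and back was -0.44 ± 0.15 (limma, adjusted p = 0.037). Falls in at least 11 of 12 mice, seen here for Zic1 and Pax3, were seen for 14.2% of all genes, and the exact test called 49.2% of all genes after adjustment and 3 of the 8 members (Zic1, En1 and Pax3).

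Most melanocyte and Schwann cell genes tested also fell in wounds in the mean of sites. Of 6 melanocyte genes tested, 5 fell in the mean of sites, with a median of -0.51, and of 8 Schwann cell genes 5 fell, with a median of -0.44. That contrast called 62.7% of all tested genes. In back wounds alone 1 of the 6 and 3 of the 8 were called lower, where 45.9% of all tested genes were called. The summed level of the 8 melanocyte genes measured was 75.4 and 81.3 FPKM in unwounded cheek of mice 3 and 4, and 22.6 to 47.1 FPKM in the other unwounded libraries. Cheek mouse 3 held the highest Pax3 (0.74 FPKM), whereas cheek mouse 4 held 0.33 FPKM. In the wounds the sum was 17.8 to 34.0 FPKM. The part of these markers in the fall of Pax3 was not tested.

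Pax9 was higher in the wound in all back and cheek mice. Unwounded cheek was listed at 0 in all 4 mice, and cheek wounds held 0.14, 0.18, 0.16 and 0.30 FPKM. Back rose from 0.01, 0.04, 0.01 and 0 FPKM to 0.12, 0.24, 0.10 and 0.11 FPKM. Abdomen went from 0.05, 0.53, 0.03 and 0.05 FPKM to 0.37, 0.12, 0.09 and 0.05 FPKM, so mouse 2 was lower, mouse 4 level and the other 2 mice higher. In all, 10 of 12 mice were higher in the wound, as at least 10 were for 24.8% of all genes.

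The test of Pax9 turned on that 1 mouse on the FPKM scale, and also on the scale used. On FPKM the exact sign changes over 12 mice gave p = 0.082, and without abdomen mouse 2 p = 0.00195. With all 12 mice kept, other scales and scalings gave p from 0.0107 to 0.164 (exact sign changes), and the log2 scales passed. With no filter the mean of sites was 0.27 ± 0.09 on the log2(FPKM + 0.5) scale (limma, adjusted p = 0.025), where 52.2% of genes were called, and cheek was 0.47 ± 0.16 (limma, adjusted p = 0.041), where 29.0% were called. Abdomen mouse 2 also held the lowest muscle sum of all libraries, 486 FPKM, in the same unwounded sample. Between unwounded sites Pax9 was lower in cheek than in abdomen with no overlap (exact permutation test, p = 0.0286), and in wounds no pair of sites passed (p from 0.371 to 0.943).

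Pax9 is known from oral epithelium, and a list of 8 genes of that tissue was read beside it. Its sum was 6.11 to 66.9 FPKM in unwounded libraries and 104 to 763 FPKM in wounds. In the mean of sites 4 of 5 genes tested rose, where 62.7% of all tested genes were called. The part of this list in the Pax9 values was not tested. The most abundant was Sprr2d, a gene of the epidermal barrier that reached 701 FPKM, whereas the oral keratins Krt76, Krt4 and Krt13 were at most 0.05, 0.54 and 1.45 FPKM in any library. The 3′ end of Pax9 overlaps the gene Slc25a21 by 191 bases, and the source of fragments there cannot be told apart.

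**Figure D4:**
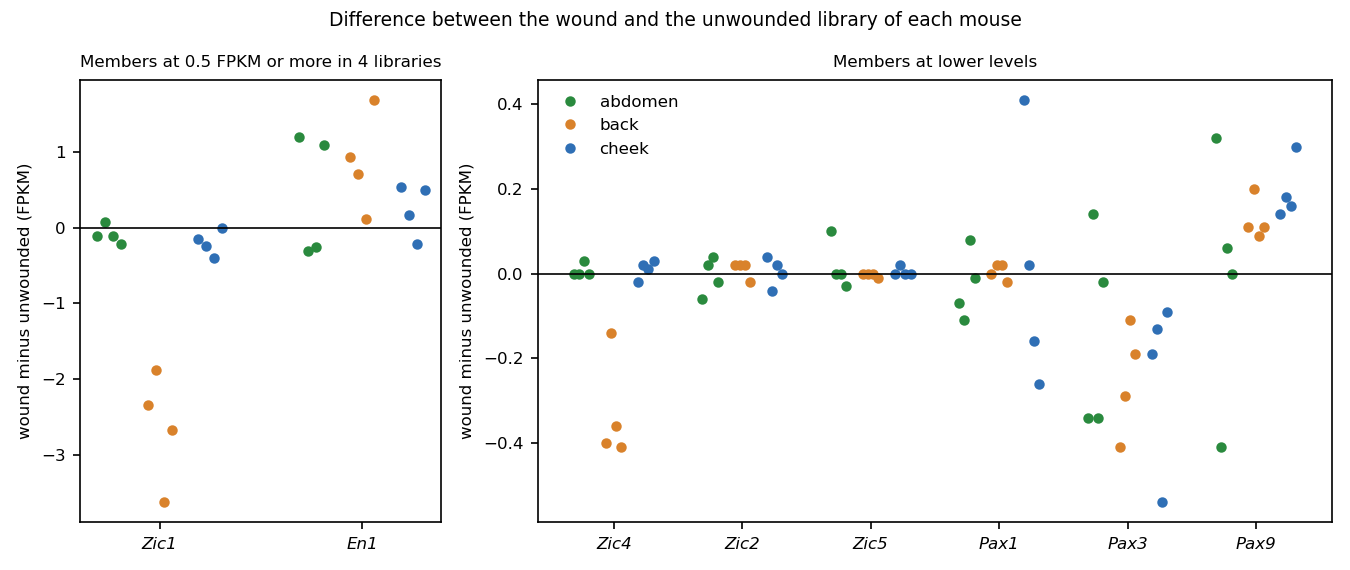
Wound minus unwounded level of each mouse in FPKM (vertical axis, with 1 scale for Zic1 and En1 and another for the 6 rarer members), coloured by site, with a line at 0. All 4 back mice lie below 0 for Zic1, Zic4 and Pax3, and all 8 back and cheek mice above 0 for Pax9, while abdomen mouse 2 stands at -0.41 FPKM for Pax9.

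Of 36 exact tests between sites made for the 6 members outside the selection (3 pairs of sites, in unwounded skin and in wounds), 8 gave the smallest p the design allows. Over the same 6 comparisons this test gave a p under 0.05 in 12.3% of all tests of genes above 0. Zic4 accounted for 4, Pax1 for 3 and Pax9 for 1. With no filter limma called 4 of them, all of Zic4, and none of the 12 comparisons of cheek with abdomen, where 1.49% of genes were called in unwounded skin and 7.52% in wounds. Adjusted p values over the 8 genes alone were not formed, because the genes were put together with their values known.

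Other genes of the En and Pax families were read beside the members. Pax7, which marks muscle stem cells, was at 0.21 to 0.61 FPKM in unwounded cheek, at 0.08 to 0.33 in back and at 0 to 0.25 in abdomen, and rose in wounds by 0.25 ± 0.08 for the mean of sites (limma, adjusted p = 0.013). Of the single sites only abdomen was called (0.41 ± 0.13; limma, adjusted p = 0.033), where 32.9% of genes were called. Back (0.14 ± 0.13) and cheek (0.20 ± 0.13) were not (limma, adjusted p = 0.41 and 0.26). En2, Pax5, Pax6 and Pax8 did not exceed 0.16 FPKM in any library. A list of 8 genes of muscle stem cells and regenerating muscle includes Pax7 itself. Of these 8, 7 were called higher in the mean of sites, Pax7 among them, where 62.7% of all tested genes were called.

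Other patterning genes of the somite and of the dorsal neural tube and neural crest were listed as context. Of 15 tested somite genes, none was called between unwounded sites by the F test over the 3 sites, which called 4.17% of all genes, and the nearest were Meox2 and Tbx18 (limma, adjusted p = 0.076 and 0.086). For the mean wound effect, which was called for 62.7% of all genes, 1 of the 15 rose and 8 fell. Their median was -0.48 against 0.02 over all tested genes. Meox1 rose by 0.55 ± 0.07 (limma, adjusted p = 3.3e-05) and Foxc1 fell by 0.48 ± 0.07 on the log2 scale (limma, adjusted p = 3.8e-05). Of 7 tested genes of the dorsal neural tube and neural crest, 1 differed between unwounded sites. This was Tfap2b, which was lower in back than in abdomen (-0.50 ± 0.09; limma, adjusted p = 0.016), the reverse of Zic1. Msx1 came next (limma, F test over sites, adjusted p = 0.071). Between the wounds of the 3 sites the F test called 2 of the 15 somite genes (Six4 and Tbx18), 2 of the 7 others (Msx1 and Tfap2b) and 9.02% of all genes. For the mean wound effect, against the same 62.7% of all genes, 2 of the 7 rose, such as Tfap2a (0.35 ± 0.08; limma, adjusted p = 0.0018). The same effect was a fall in 4, such as Tfap2b (-0.58 ± 0.07; limma, adjusted p = 1.2e-05).

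The tissue labels held in the values of markers. Summed keratinocyte genes were at 5930 FPKM or more in every library. Genes known to rise in skin wounds (Krt6a, Krt16, Il1b and 3 others) summed to 63.5 to 201 FPKM in unwounded libraries and to 1820 to 13200 FPKM in wounds. All 8 leukocyte genes were called higher in the mean of sites, where 62.7% of all tested genes were called. The 6 genes of a brain list, a tissue where Zic, En1 and Pax genes are also active, summed to 0.42 to 0.90 FPKM in unwounded libraries and to 0.39 to 3.82 FPKM in wounds. Snap25 was at most 0.06 and Neurod1 0.05 FPKM. In the same mean of sites Cbln1, which reached 3.37 FPKM in wounds, was called higher and Rbfox3, at most 0.61 FPKM, lower. The part of this list in the members' values was not tested. The FPKM values of a library summed to between 490830 and 608888, and between 15781 and 16577 genes were above 0.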

How the data were processed

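RNA of 24 whole punches of skin or wound was sequenced with paired-end reads. The authors deposited FPKM values per library, rounded to 2 decimals, from Bowtie2 (2.2.5) and RSEM (1.2.12) on mm10. Their table of fold changes and p-values was not used. Of the columns of samples, 0 were left unused.

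For limma (3.58.1, statmod 1.5.0, R 4.3.3; trend and robust moderation), 0.5 was added to each FPKM before taking log2, and a gene entered a fit if 4 of its libraries reached 0.5 FPKM. Benjamini-Hochberg adjustment of p-values covered all genes of the fit (threshold 0.05). Sites were compared in unwounded skin and in wounds separately, and the wound effect was fitted to all 24 libraries in a model that holds each mouse as a term. By the labels both libraries of a mouse come from 1 animal. Their deviations from the group means had a lowest correlation of -0.03 and averages of 0.281 to 0.348 per site. Members under the filter were tested by exact permutation (4 against 4, smallest p 0.029) or exact sign changes (12 mice, smallest p 0.000488). All tests were tried on simulated data.

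The members and lists were chosen with earlier results of these data known. By rule the text names the members, their measured relatives, the 2 genes of each context list with the smallest p per contrast and the 5 genes closest to Zic1, Zic4 and En1. Msx2, Foxn1, Six4 and single markers were picked with their values in view. A few of the genes that the rule names are not reported here. Alternatives were other pseudocounts, filters, scalings and models, and each mouse left out in turn.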

Additional observations from a re-analysis of the deposited data

Results flagged for a closer look

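In 9 of the 48 groups of 4 libraries (8 members in 6 groups), the highest library stood apart from the other 3. The gap was larger than the 95% limit of Dixon for 4 values. That limit is made for values without a floor at 0, so no rate by chance is set beside the count. Of these, 7 were single values above 0 in groups otherwise listed at 0, where any value above 0 passes the limit whatever its size. They were Zic4 in the abdomen wound of mouse 3 (0.03 FPKM), Zic5 in unwounded abdomen of mouse 4 (0.03), in unwounded back of mouse 4 (0.03), in the abdomen wound of mouse 1 (0.10), in the back wound of mouse 4 (0.02) and in the cheek wound of mouse 2 (0.02 FPKM), and Pax1 in unwounded back of mouse 4 (0.02 FPKM).

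Pax9 stood apart at 0.53 FPKM in unwounded abdomen of mouse 2, where the other mice held 0.03 to 0.05 FPKM, and at 0.24 FPKM in the back wound of mouse 2, where the others held 0.10 to 0.12 FPKM. Both mice are numbered 2 but are different animals. No member's wound effect was called as different between sites.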

How the results depend on the processing

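The counts of calls and the effects of Zic1 and En1 were recomputed under 17 to 22 alternatives each, as were the exact wound tests of Zic1, Zic4, En1, Pax3 and Pax9. The exact tests between sites, and single values of Zic2, Zic5 and Pax1, were not. The fall of Zic1 in back was called in all 21 (log2 change from -0.99 to -0.72), and its mean over sites in all 20 (from -0.73 to -0.36). No result named here reversed. Comparisons between sites called for the 6 members outside the selection numbered 0 in the main analysis, since none passed the filter, and became 2 with median-ratio scaling (unwounded, Zic4 passing the filter) and 2 with no filter, both in unwounded skin and in wounds. They stayed at 0 with a replicate block of mouse numbers and in all fits that left out a mouse. Calls for a wound effect numbered 3 and became 9 with no filter, 1 with each site fitted on its own 8 libraries (which gives no mean of sites), 2 at a threshold of 0.001, 2 without the mouse pairing (no replicate block) and 2 to 3 with a mouse left out. The called members under the filter numbered 1 (Pax3) by exact sign changes, and 2 when differences were taken on log2 scales with a pseudocount of 0.1, 0.5 or 1, an alternative chosen after seeing the data. With a mouse left out the number was 1 to 2. Pax9 was the gene added each time. No fold for Zic4 or Pax9 against groups at 0 is given, and FPKM without counts leave the counting error at these levels unknown.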
